A study of Mus musculus with 6 samples.

Results

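BCL2 family genes set whether a lymphocyte lives or dies when survival signals change, and 10 of them were followed here in mouse regulatory T cells, which carry Foxp3 and hold other immune cells in check. The genes were taken by symbol from the deposited tables: the pro-survival genes Bcl2, Bcl2l1, Mcl1, Bcl2a1b and Bcl2a1d, the pore-forming effectors Bax and Bak1, and the BH3-only triggers Bcl2l11, Bbc3 and Pmaip1. All 10 were found among 24424 genes in the count table, and all 10 passed the filter on low counts that left 14548 genes for testing. RNA sequencing had been done on 6 libraries of cells sorted from spleen and lymph nodes, in 3 groups of 2. WT libraries carried the strain label Bcl11bF/F, with floxed Bcl11b and no Cre named. KO libraries carried the strain label Bcl11bF/WT Foxp3YFP-Cre +/-, in which Cre is driven from the Foxp3 locus and which also names a wild-type Bcl11b allele. KO EAE libraries had the same strain label and came from mice with EAE, the usual abbreviation of experimental autoimmune encephalomyelitis, in which T cells attack the nervous system. A WT EAE group was not analysed here, so genotype and EAE could not be separated in the comparison of KO EAE with WT.

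Proteins of this family meet on the outer mitochondrial membrane. Pro-survival members hold Bax and Bak in check, BH3-only proteins neutralise the pro-survival members or engage Bax and Bak directly, and free Bax and Bak open pores that release cytochrome c and start the caspases. In regulatory T cells, interleukin-2 signals, Mcl1 and restraint of the BH3-only protein Bim (Bcl2l11) are known to be needed for survival.

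The targeted gene Bcl11b, a zinc finger factor of T cells, read 420 and 425 counts-per-million (CPM, scaled by TMM, a correction for library composition) in WT replicates 1 and 2, 371 and 370 in KO, and 404 and 278 in KO EAE. It changed by -0.19 ± 0.17 (SE) on the log2 scale between WT and KO, with adjusted p = 0.527 in edgeR's quasi-likelihood test, adjusted by Benjamini-Hochberg over all 14548 genes. This count covers the whole gene, floxed and unfloxed exons alike, and is therefore a weak check of genotype. Libraries held 14663542 to 16904312 reads, and 3 reads, taken as the floor for counting error alone, corresponded to 0.177 to 0.205 CPM before TMM scaling. T cell markers were present throughout (8 of 10 listed genes found, summed level 1405 to 1507 CPM), and regulatory T cell markers summed to 2275 and 2365 CPM in WT against 1285 to 1414 CPM in the other 4 libraries. Summed markers of several other cell types were higher in all 4 KO and KO EAE libraries, while the 2 CD8 T cell markers summed to 25.5 and 27.3 CPM in WT against 19.8 to 24.6 in the others. Cd8b1 made up most of that sum, at 25.8 and 24.4 CPM in WT against 17.9 and 21.2 in KO. Cd8a went the other way, at 1.56 and 1.10 CPM in WT against 1.82 and 3.48 in KO, and neither gene was called. The 12 macrophage and monocyte markers, none of them at 0 reads in any library, summed to 368 and 447 CPM in WT, 1566 and 1912 in KO, and 1417 and 1803 in KO EAE. The 9 NK cell markers summed to 90.8 and 92.9 CPM in WT against 245 to 301 in the others, with Klra8 at 0 reads in every library. Tyrobp and Fcer1g gave much of that rise, from 9.45 to 11.1 CPM each in WT to 43.5 to 69.1 in the others. From WT to KO 6 of 8 tested were called, all but Ncr1 and Prf1. Ncr1 read 3.07 and 1.96 CPM in WT, 8.74 and 6.35 in KO, and 1.99 and 3.41 in KO EAE. The 10 B cell markers summed to 44.6 and 48.7 CPM in WT against 75.6 to 152 in the others, with 1 of 10 called from WT to KO, Cd22. Without Cd22 the B cell sum was 30.3 and 35.6 CPM in WT, 37.0 and 76.9 in KO, and 27.5 and 52.8 in KO EAE. The 6 dendritic cell markers summed to 9.26 and 12.6 CPM in WT against 68.9 to 166 in the others, and the 8 neutrophil markers to 2.94 and 4.19 CPM in WT against 26.8 to 127 in the others, with S100a8 at 0 reads in WT replicate 1 and KO replicate 1 and 1 of 6 tested called, Csf3r. Without Csf3r the neutrophil sum was 2.33 and 2.57 CPM in WT, 3.18 and 16.7 in KO, and 10.9 and 90.9 in KO EAE. In bulk RNA, more cells of a type and more RNA per cell cannot be told apart. Whether the 2 libraries of a group stem from different animals or sorts is not stated in the labels, so p-values reflect the spread among these samples alone, and it may be technical.

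Bcl2a1b and Bcl2a1d encode A1, a short-lived pro-survival protein of haematopoietic cells, and they are copies of the same gene on chromosome 9 (mm10), Bcl2a1b (ENSMUSG00000089929.1) at 89199209 to 89207827 on the plus strand and Bcl2a1d (ENSMUSG00000099974.1) at 88723285 to 88731914 on the minus strand. A further copy, Bcl2a1a, lies between them at 88956900 to 88962419. Their sequences are shown because they set how far reads of the copies can be told apart. The first 75 coding bases (GENCODE M21 transcripts) are the stretch where the 3 copies differ most, and capitals mark the 6 positions there that are not the same in all 3:
Bcl2a1a: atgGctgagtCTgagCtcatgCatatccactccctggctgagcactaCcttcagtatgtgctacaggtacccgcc
Bcl2a1b: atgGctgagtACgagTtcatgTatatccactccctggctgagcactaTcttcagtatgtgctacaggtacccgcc
Bcl2a1d: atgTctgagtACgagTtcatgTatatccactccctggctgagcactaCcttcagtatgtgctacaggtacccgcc
Coding positions 95 to 169 are a window of that length that is identical in all 3, and a read from it fits each copy equally:
Bcl2a1a, Bcl2a1b and Bcl2a1d: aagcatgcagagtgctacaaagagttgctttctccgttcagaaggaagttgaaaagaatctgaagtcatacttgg
Over the whole coding length of 516 bases, 12 positions differed among the 3 copies, and Bcl2a1b and Bcl2a1d were 98.8% identical. Of all 75-base words of the Bcl2a1d transcript, 67.6% also occurred in another gene, and of those of Bcl2a1b 68.4% did, partly through the overlapping locus Gm29094. The sources used here give neither the read length nor the handling of reads with several matches, so the split between the copies is uncertain. The other members were far more distinct, with no shared 75-base word in Bcl2l1, Mcl1, Bcl2l11, Bbc3 or Pmaip1, 4.67% in Bcl2, 6.84% in Bax and 12.8% in Bak1. Those of Bak1 were shared with Ggnbp1, whose exons overlap 25.5% of the exon bases of Bak1 on the opposite strand, and because no strand setting is stated the reads of that overlap cannot be assigned.

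The sequence just before the start of the copies was also nearly shared. The stretches shown are the 186 bases before the GENCODE start of each member, from RefSeq promoter windows (GRCm38.p6), at chr9:89199023-89199208 on the plus strand and chr9:88731915-88732100 on the minus strand, with the letters GAGGAAGT in capitals, the core bound by the ETS factor PU.1 of myeloid and B cells:
Bcl2a1b: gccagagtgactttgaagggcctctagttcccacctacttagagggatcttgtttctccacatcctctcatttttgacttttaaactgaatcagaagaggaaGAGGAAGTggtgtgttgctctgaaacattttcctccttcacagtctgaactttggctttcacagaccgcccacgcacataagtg
Bcl2a1d: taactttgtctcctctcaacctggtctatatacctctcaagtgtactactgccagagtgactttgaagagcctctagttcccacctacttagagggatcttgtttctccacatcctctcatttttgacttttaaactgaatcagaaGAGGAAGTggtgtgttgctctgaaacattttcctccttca
Aligned to each other, they shared 135 of 142 aligned positions (95.1%). GAGGAAGT was found once in each on the strand shown or its complement, and it occurs in 1.9% of the 32851 promoter windows of that length. The windows for that share were cut at a fixed place, and the stretches shown by their GENCODE start. In the whole RefSeq windows, 3.2% of which hold GAGGAAGT, the member Bak1 also had 1 match, as did Bcl2a1a and Bcl2a1c. The letters TGANTCA, with N for any base, occurred once in both stretches shown (5.13% of windows), with A at N. The AP-1 core has C or G there, so neither stretch holds it. TTCNNNGAA, the STAT core, occurred in neither (5.07% of windows). GAGGAAGT was chosen after the sequences were seen, and a match describes letters in a window and no binding.

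Per length, the copies of Bcl2a1 and Mcl1 were the most abundant members in every group of the count table. On a scale of CPM per kilobase of exon (all annotated exons of the gene joined), Mcl1 stood at 98.6 ± 1.48 (SD, n = 2), Bcl2a1b at 97.8 ± 0.935 and Bcl2a1d at 76.9 ± 0.107 in WT, and the libraries of Mcl1 and Bcl2a1b overlapped. Bax at 35.4 ± 0.589, Bak1 at 34.8 ± 2.83, Bbc3 at 34.1 ± 3.75 and Bcl2 at 31.2 ± 0.499 followed, each overlapping the next in order. Pmaip1 at 22.8 ± 3.55, Bcl2l11 at 18.9 ± 0.313 and Bcl2l1 at 18.6 ± 0.519 were lowest, the last pair overlapping. In KO the order at the top was different. Bcl2a1b at 154 ± 22.0 and Bcl2a1d at 147 ± 21.3 overlapped each other and lay above Mcl1 at 93.3 ± 9.31 in both libraries, and in KO EAE the same 3 genes stood in the same order at 140 ± 17.9, 128 ± 16.3 and 96.2 ± 5.82. Bcl2l1 had the lowest mean in all 3 groups, and its libraries overlapped the next gene in each. Bcl2a1b and Bcl2a1d together made up 37.2% and 37.3% of the summed per-length level of the 10 genes in the WT libraries, 51.7% and 54.5% in KO, and 50.4% and 48.1% in KO EAE. In the authors' normalized table, described at the end, the order was another. There Mcl1 averaged 321 CPM per kilobase in WT, Bax 66.6, Bcl2a1b 47.6 and Bcl2 42.4, while Bcl2a1d at 8.97 lay below all members other than Bak1. Levels per length rest on the annotated exons, of which cells may use only part.

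**Figure D1:**
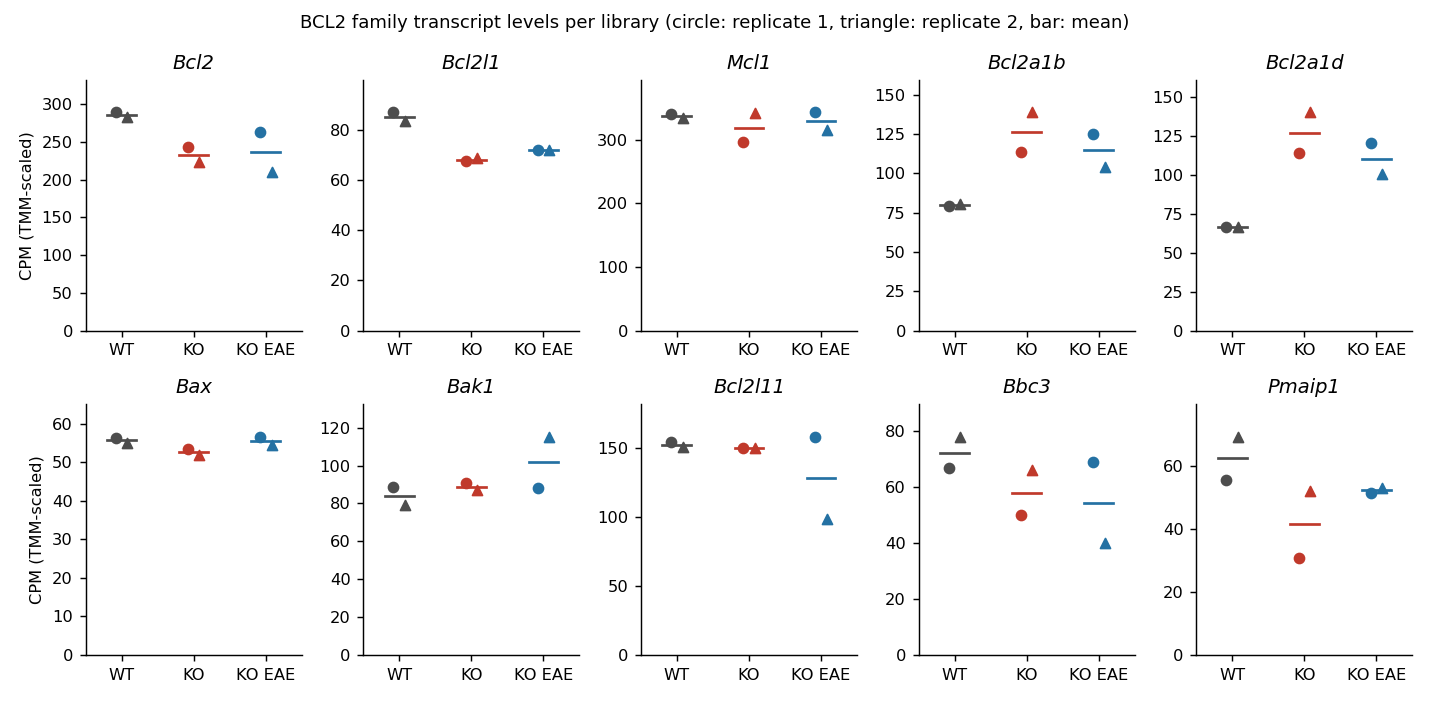
Level of each of the 10 genes in CPM (y axis, from 0, TMM-scaled) in the 6 libraries by group (x axis), with circles for replicate 1, triangles for replicate 2 and a bar for the mean of 2. Bcl2a1b and Bcl2a1d are higher in all 4 KO and KO EAE libraries than in WT, Bcl2l1 is lower in all 4, and KO EAE replicates lie far apart for Bcl2l11 and Bbc3.

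From WT to KO at steady state, Bcl2a1b and Bcl2a1d rose and Bcl2l1 fell, and no effector or BH3-only gene passed the test. These were 3 of the 10 genes, 2 higher and 1 lower, where 12.9% of all tested genes were called (9.41% higher and 3.46% lower). The 2 higher ones are near-identical copies whose reads may not be separable, so they may not count as 2 separate calls. The median log2 change of the 10 genes was -0.08, against -0.01 over all tested genes. KO and WT libraries did not overlap for 8 of the 10 genes, 2 above and 6 below, beside 65.2% of all tested genes (32.7% above and 32.5% below). In the normalized table KO lay above WT for 6 of the 10, below for 0, and overlapped for 4. The share over all genes of that table is not given here, so this count cannot be set beside it. Every fit that leaves out 1 library leaves 1 library in that group, which is then assumed to vary like the others.

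Among the pro-survival genes, Bcl2a1d showed the largest difference, on the CPM scale from 66.3 and 66.4 in WT replicates 1 and 2 to 114 and 140 in KO. Both KO libraries lay well above WT, and the WT pair was nearly level. The log2 change was 0.94 ± 0.13 (SE; edgeR, adjusted p = 0.00652), and the gene stayed called with any 1 of the 4 libraries left out (adjusted p 0.0188 to 0.0465). Bcl2a1b read 79.3 and 80.4 CPM in WT against 113 and 139 in KO, again with KO replicate 2 the higher. Its log2 change of 0.66 ± 0.13 had an adjusted p of 0.0231, which was 0.0444 without KO replicate 1 and 0.113 to 0.116 without KO replicate 2, WT replicate 1 or WT replicate 2, so that only the first of these 4 fits kept the call. With the reads of all Bcl2a1 copies summed before the fit, the log2 change was 0.92 ± 0.16 (edgeR, adjusted p = 0.0143). The sum takes out the split among the copies, but not the unknown handling of reads with several matches. It leaves out the overlapping locus Gm29094.

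In the same libraries 9 of 12 macrophage and monocyte markers and 6 of 8 tested NK cell markers rose and none fell, with median log2 changes of 2.81 and 1.93, and Bcl2a1 is known to be expressed by macrophages as well as lymphocytes. Summed over Bcl2a1a, Bcl2a1b and Bcl2a1d, the level was 190 and 189 CPM in WT, 317 and 401 in KO, and 344 and 269 in KO EAE. KO EAE replicate 2, with 1803 CPM of macrophage and monocyte markers, had the lowest Bcl2a1 sum of the 4 KO and KO EAE libraries, and KO EAE replicate 1, with the lowest marker sum of those 4 at 1417 CPM, had the second highest. KO replicate 2 had the highest of both sums, 1912 and 401 CPM, and was above KO replicate 1 in both. The part of these cells in the Bcl2a1 values was not tested.

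**Figure D2:**
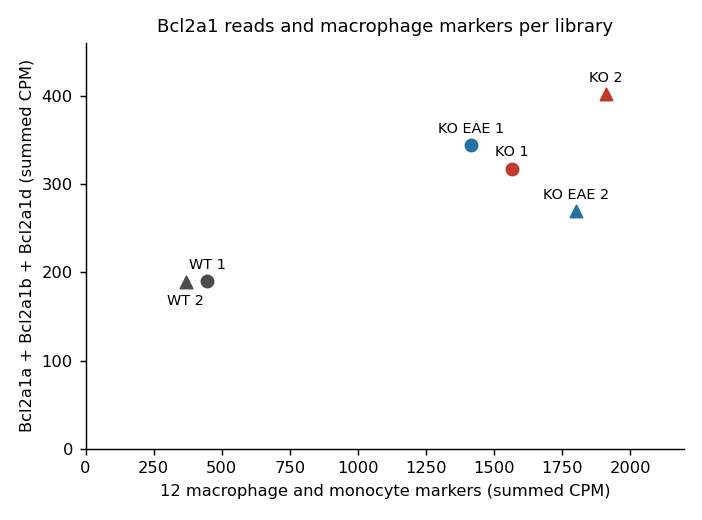
Summed CPM of Bcl2a1a, Bcl2a1b and Bcl2a1d (y axis) against the summed CPM of 12 macrophage and monocyte markers (x axis), 1 point per library of the count table. WT libraries sit together at the lower left (189 and 190 CPM of Bcl2a1), and among the other 4 libraries the order on the 2 axes differs.

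Bcl2l1 (ENSMUSG00000007659.18, chromosome 2, 152780668 to 152831728) encodes BCL-XL, a pro-survival protein that cytokine and costimulatory signals induce in T cells. It read 86.9 and 83.5 CPM in WT against 67.5 and 68.7 in KO, and both groups were tight. It fell by 0.32 on the log2 scale (SE 0.07; edgeR, adjusted p = 0.0321). The call ended in each of the 4 fits without 1 library (adjusted p 0.113 to 0.262), with a replicate block (0.0652), and also without the filter on low counts.

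Bcl2 (ENSMUSG00000057329.7, chromosome 1, 106538178 to 106714274), the founding member and a target of interleukin-7 and interleukin-2 signals, read 289 and 282 CPM in WT against 243 and 223 in KO. Both KO libraries were lower, but the log2 change of -0.29 ± 0.12 missed the threshold (edgeR, adjusted p = 0.181), with a 95% interval from -0.59 to 0.00373. Mcl1 (ENSMUSG00000038612.16, chromosome 3, 95658788 to 95663176), whose short-lived protein regulatory T cells need, read 341 and 333 CPM in WT against 296 and 341 in KO. The groups overlapped, the log2 change was -0.08 ± 0.10 (edgeR, adjusted p = 0.657), and its 95% interval ran from -0.33 to 0.17.

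The effectors differed little. Bax (ENSMUSG00000003873.11, chromosome 7, 45461697 to 45466898) read 56.4 and 55.1 CPM in WT against 53.4 and 52.0 in KO. KO lay just below WT, with a log2 change of -0.08 and a 95% interval from -0.26 to 0.10 (edgeR, adjusted p = 0.542). Bak1 (ENSMUSG00000057789.14, chromosome 17, 27019810 to 27029009) read 88.6 and 79.0 CPM in WT against 90.8 and 87.1 in KO, with overlapping groups and a 95% interval from -0.25 to 0.42.

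None of the 3 BH3-only genes was called, and their intervals were wider. Bcl2l11 (ENSMUSG00000027381.16, chromosome 2, 128126038 to 128162547), which encodes Bim, read 154 and 150 CPM in WT against 150 in both KO libraries. Its log2 change was -0.02 ± 0.20, with a 95% interval from -0.52 to 0.47. Pmaip1 (ENSMUSG00000024521.8, chromosome 18), which encodes Noxa, the partner that promotes loss of Mcl1 protein, read 55.6 and 69.3 CPM in WT against 30.8 and 52.1 in KO. Both KO libraries lay below WT, the KO pair lay far apart, and the log2 change of -0.59 ± 0.24 was not called (edgeR, adjusted p = 0.178). It was called without KO replicate 2, which left the lower KO library alone (-1.02, adjusted p = 0.0436; 5.78% of all genes called), and was -0.26 without KO replicate 1 (adjusted p = 0.503). Bbc3 (ENSMUSG00000002083.13, chromosome 7, 16308393 to 16318205), which encodes Puma, a target of p53 and FOXO factors, read 66.8 and 78.0 CPM in WT against 49.95 and 66.1 in KO, a log2 change of -0.32 ± 0.26 (edgeR, adjusted p = 0.483). With 1 library left out that change ran from -0.53 without KO replicate 2 to -0.13 without KO replicate 1.

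Within a library, the balance of trigger to guardian can be given as a ratio of reads. There were 0.533 reads of Bcl2l11 per read of Bcl2 in both WT libraries, 0.618 and 0.672 in KO, and 0.599 and 0.469 in KO EAE, so KO lay above WT and KO EAE on both sides of it. That order did not extend to Mcl1 or to the other table. Reads of Bcl2l11 per read of Mcl1 were 0.452 and 0.451 in WT against 0.506 and 0.438 in KO, and reads of Bcl2l11 per read of Bcl2 in the normalized table were 0.335 and 0.212 in WT against 0.294 and 0.290 in KO. Reads of Bcl2a1b and Bcl2a1d together per read of Bcl2 were 0.504 and 0.520 in WT, 0.936 and 1.25 in KO, and 0.931 and 0.979 in KO EAE, with no overlap between WT and the others. No test was made on these ratios.

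**Figure D3:**
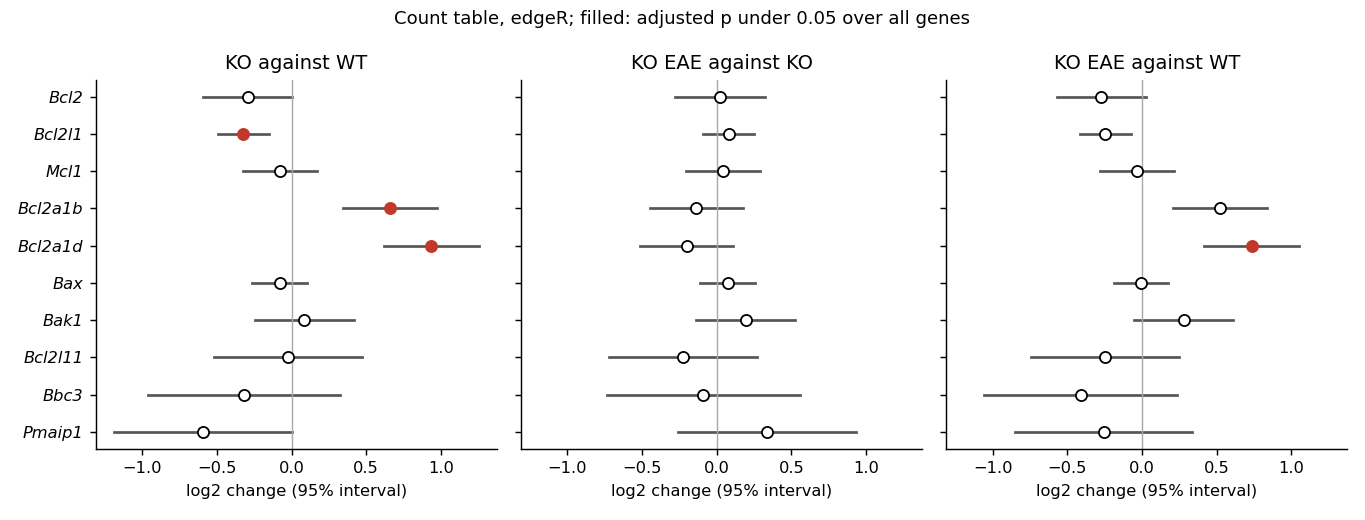
Log2 change (x axis) of each of the 10 genes (y axis) in 3 comparisons of the count table, with lines for the 95% interval of edgeR's test and filled points for an adjusted p under 0.05. Filled points are Bcl2l1, Bcl2a1b and Bcl2a1d for KO against WT and Bcl2a1d for KO EAE against WT, and there is none for KO EAE against KO.

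EAE made no detected difference to the 10 genes within the KO genotype. edgeR called 0 of the 10 for KO EAE against KO, where it called 0.0137% of all tested genes. At an unadjusted p under 0.05 in edgeR there were 0 of the 10, beside 1378 of all 14548 tested genes. DESeq2 called 0 of the 10 and 1.24% of its genes in this comparison. The log2 changes ran from -0.23 for Bcl2l11 (95% interval -0.72 to 0.27) to 0.34 for Pmaip1 (-0.26 to 0.93). KO EAE and KO libraries did not overlap for 2 of the 10 genes, Bcl2l1 and Bax, each slightly higher in KO EAE (0.08 and 0.07), beside 38.3% of all tested genes. The KO EAE replicates differed more from each other than those of the other groups for several members. Bcl2l11 read 158 and 98.1 CPM in KO EAE replicates 1 and 2, where all 4 other libraries lay between 150 and 154. Bbc3 read 68.9 and 40.0 CPM, and Bcl2 263 and 209. Replicate 2 was the lower for all 3, and Bcl11b was lower in it as well (278 against 404 CPM). Bak1 went the other way, with 88.4 and 115 CPM. Neutrophil markers summed to 26.8 and 127 CPM in the same replicates, and their part in these values was not tested. Without KO EAE replicate 1, Bcl2l11 alone was called lower than in KO (log2 change -0.61, adjusted p = 0.0387; 2.01% of all genes called).

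KO EAE against WT shares its WT libraries with the comparison of KO with WT. Bcl2a1d rose, at 120 and 101 CPM in KO EAE, with a log2 change of 0.74 ± 0.13 (edgeR, adjusted p = 0.0205), the only call among the 10 genes where 9.36% of all tested genes were called (7.41% higher). KO EAE lay apart from WT for 5 of the 10 genes, 2 above and 3 below, beside 60.6% of all tested genes. That call ended without WT replicate 1 or WT replicate 2 (adjusted p = 0.101 and 0.112). Bcl2a1b, at 125 and 104 CPM, had a log2 change of 0.52 ± 0.13 (adjusted p = 0.0619), and the summed copies 0.69 ± 0.16 (adjusted p = 0.0478). Bcl2l1, at 71.9 and 72.0 CPM, lay below both WT libraries with a log2 change of -0.24 ± 0.07 that was not called (adjusted p = 0.0890). The median log2 change of the macrophage and monocyte markers was 2.71 here, and their part was not tested. The count of called members depended on the KO EAE library used. Without KO EAE replicate 1, with a single library left in that group, 5 of the 10 genes were called (24.2% of all genes): Bcl2a1d and Bak1 higher, and Bcl2, Bcl2l11 and Bbc3 lower, by log2 changes of 0.59, 0.45, -0.46, -0.64 and -0.86. Without KO EAE replicate 2, Bcl2a1b and Bcl2a1d were called higher (0.65 and 0.86; 7.29% of all genes called).

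The rest of the BCL2 family added a single call in KO against WT. Of 14 further family genes, all in the table, 10 passed the filter, so that 1 of 10 was called beside 12.9% of all tested genes. Bcl2a1a, the remaining expressed copy, rose from 44.0 and 42.3 to 89.4 and 122 CPM (log2 change 1.29 ± 0.23; edgeR, adjusted p = 0.0169), but kept its call in only 1 of the 4 fits with a library removed (adjusted p 0.0473 to 0.104). Bcl2a1c had 2 to 7 reads per library. Bid, which links death receptors to mitochondria, read 54.2 and 54.9 CPM in WT against 48.4 and 45.1 in KO, a log2 change of -0.22 ± 0.12 (adjusted p = 0.270). The BH3-only gene Bmf stood apart in 1 WT library, with 13.3 and 61.1 CPM in WT replicates 1 and 2, against 15.6 to 25.9 CPM in the other 4 libraries.

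Downstream and upstream of the family, 9 genes were called in KO against WT. The counts per list ran from 0 of 6 to 2 of 5, beside 12.9% of all tested genes, and rest on few genes. Of 12 genes of the apoptosome, the caspases and their inhibitors, 1 rose and 1 fell. Casp9, the initiator caspase that Apaf1 activates, rose from 32.1 and 31.4 to 62.5 and 51.9 CPM (log2 change 0.85 ± 0.14; edgeR, adjusted p = 0.0125), and Birc2, an inhibitor of apoptosis in TNF receptor signalling, fell by 0.51 (adjusted p = 0.0460). Of 11 death receptor genes, Tnfrsf1a, the main TNF receptor, rose by 0.53 ± 0.10 (adjusted p = 0.0173), and Fas, the death receptor that limits activated lymphocytes, fell from 64.8 and 66.4 to 38.6 and 42.4 CPM (log2 change -0.70 ± 0.16, adjusted p = 0.0403). Birc2 and Fas were called in 0 of the 4 fits with a library removed (adjusted p up to 0.251 and 0.257), and Casp9 and Tnfrsf1a in 1 each (up to 0.0866 and 0.105). Macrophage and monocyte markers, with a median log2 change of 2.81, rose in the same libraries, and their part in these changes was not tested. In the normalized table Birc2, Fas and Tnfrsf1a had the opposite sign, with log2 changes of 0.03, 0.00205 and -0.07.

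Of 8 genes of the cytokine survival signal 2 fell, Il2ra, the high-affinity interleukin-2 receptor chain, by 0.87 and Stat5a, which carries its signal to the nucleus, by 0.45 (SE 0.07 and 0.09; edgeR, adjusted p = 0.000829 and 0.0214). Of 5 NF-kappaB genes 2 fell. Rel, the c-Rel subunit and a known activator of Bcl2a1, read 136 and 130 CPM in WT, 52.3 and 60.5 in KO, and 97.4 and 96.3 in KO EAE, with no overlap among the 3 groups. It fell by 1.24 from WT to KO on the log2 scale (SE 0.09, adjusted p = 0.000444) and by 0.46 from WT to KO EAE (adjusted p = 0.0284). Any link between its transcript level and that of the Bcl2a1 copies was not tested. Nfkb2 fell by 0.44 from WT to KO (adjusted p = 0.0125). Of 4 genes that set the turnover of Mcl1 protein, Fbxw7, part of a ubiquitin ligase, fell by 0.35 (edgeR, adjusted p = 0.0392). Of 6 genes of the p53 and FOXO arm, which drives Bbc3 and Pmaip1, edgeR called 0. DESeq2 called 2 of them, and 3 had an unadjusted p under 0.05 in edgeR. Over all 14548 genes tested in edgeR, 4128 had an unadjusted p under 0.05, and DESeq2 called 16.8% of its genes. In the same KO libraries 8 of 9 regulatory T cell markers, Il2ra among them, fell (median log2 change -0.78) and 9 of 12 macrophage and monocyte markers rose, and their part in these falls was not tested. Il2ra and Rel stayed called with any 1 of the 4 libraries left out, Nfkb2 in 1 of those 4 fits (highest adjusted p 0.104), and Stat5a and Fbxw7 in 0 (highest 0.164 and 0.250). In KO EAE against WT, Il2ra and Stat5a fell too, by log2 changes of -0.88 and -0.44 (edgeR, adjusted p = 0.000963 and 0.0307), and without 1 library Stat5a and Rel kept that call in 1 of 4 fits each.

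The genes whose levels moved most like the called members over the 6 libraries were found by Pearson's r of log2 CPM among 10528 genes outside the family averaging at least 5 CPM. For Bcl2l1 they were Ppp2r5d, Treml2 and Map3k8 (r = 0.999, 0.998 and 0.995), for Bcl2a1b Rin3, Zbtb12 and Acvrl1 (0.992, 0.992 and 0.986), and for Bcl2a1d Acvrl1, Zbtb12 and Rasgrp2 (0.995, 0.995 and 0.994). These 6 points share their libraries and groups, and the values are a description. A high r does not mean a large difference, since Rin3 stood at 210 to 220.0 CPM in all 6 libraries.

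The authors' normalized table, which holds WT and KO libraries only, gave other values under the same library names. Reads were recovered from it as whole multiples of 1 step per library (16884434 to 25335011 reads). Bak1 averaged 2.18 CPM in WT there, from 51 and 25 reads, against 83.8 CPM in the count table, 38.5 times as much. Mcl1 averaged 1096 CPM there against 337. The split among the Bcl2a1 copies differed as well. Bcl2a1b took 76.1% to 83.6% of the reads of the 3 copies in the normalized table and 34.6% to 42.5% in the count table, and Bcl2a1a had 3 and 37 reads in WT and 122 and 49 in KO where the count table had 691 to 1795 in its 6 libraries. The cause of these differences was not tested.

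**Figure D4:**
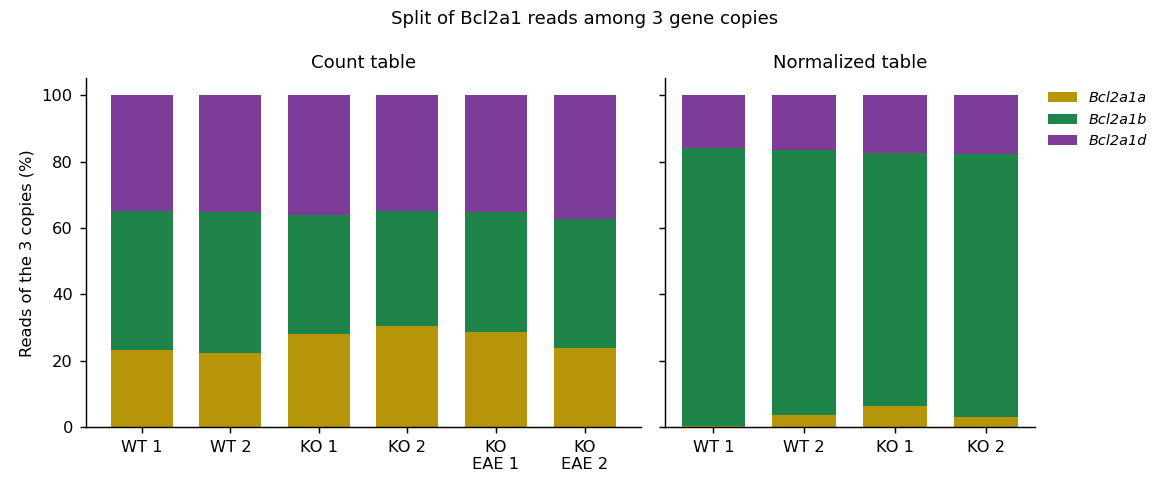
Share of the reads of Bcl2a1a, Bcl2a1b and Bcl2a1d that fell on each copy (y axis, percent), 1 bar per library, in the count table (left) and the normalized table (right). Bcl2a1b holds 34.6% to 42.5% on the left and 76.1% to 83.6% on the right.

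In the normalized table edgeR called 0 of the 10 genes (0.0979% of all genes called). At an unadjusted p under 0.05 there were 2, Bcl2a1b and Bbc3, and the share of all genes at that level is not given here. The authors' deposited table has 0 of the 10 under an adjusted p of 0.05. Of the 3 genes called in the count table, the Bcl2a1 copies kept their direction. Bcl2a1b read 37.1 and 40.8 CPM in WT against 56.5 and 52.0 in KO (log2 change 0.48 ± 0.17; edgeR, adjusted p = 0.330), and Bcl2a1d 7.11 and 8.38 CPM in WT against 13.0 and 11.7 in KO (0.67 ± 0.34, adjusted p = 0.471), with KO above WT for both. Bcl2l1 did not, at 54.4 and 53.5 CPM in WT against 54.5 and 55.4 in KO (0.03 ± 0.16, adjusted p = 0.970). Signs differed between the tables for 6 of the 10 genes, Bcl2, Bcl2l1, Bax, Bak1, Bcl2l11 and Bbc3. In the authors' deposited table of log2 fold changes Bcl2a1b stands at 0.37 (adjusted p = 0.320), Bcl2a1d at 0.32 (adjusted p = 0.580) and Bcl2l1 at 0.02 (adjusted p = 0.984). Of its genes with an adjusted p, 3.36% were called. Bbc3 stands there at 0.41 (adjusted p = 0.362), and Bak1 at -0.08 with an adjusted p given as NA. On reads recovered from the normalized table, edgeR gave -0.55 for Bak1 and 0.67 for Bcl2a1d. The deposited changes may be shrunk toward 0, most where reads are few. Their sizes therefore cannot be set beside edgeR's, nor ranked against each other.

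**Figure D5:**
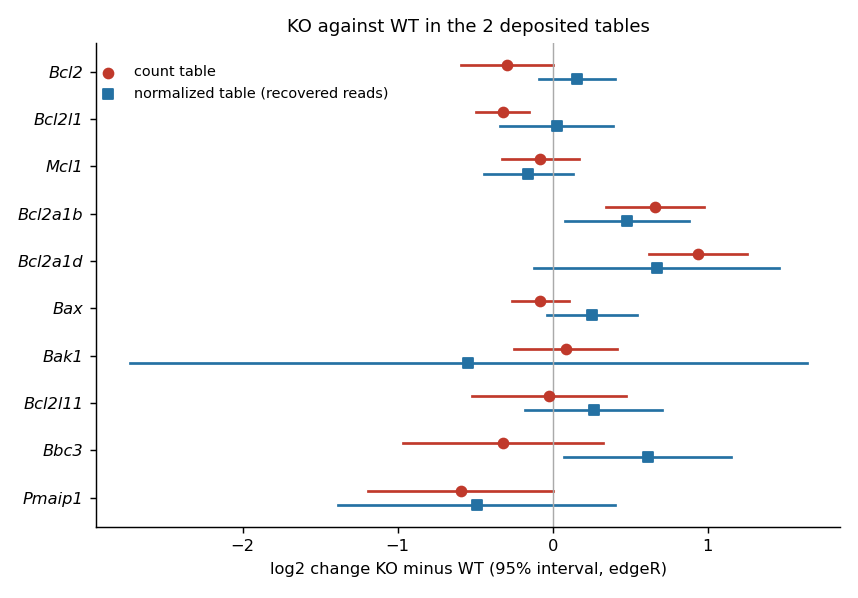
Log2 change from WT to KO (x axis) of each of the 10 genes (y axis), with 95% intervals of edgeR's test, in the count table (circles) and on reads recovered from the normalized table (squares). The Bcl2a1 copies, Mcl1 and Pmaip1 have the same sign in both, and the other 6 genes have opposite signs.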

How the data were processed

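RNA of sorted cells was made into NEBNext Ultra II libraries for a NextSeq500, per the labels' protocols. HISAT2, HTSeq and DESeq2 and the mm10 build are named per the submitters' processing notes; versions, annotation and strand setting: not given in the sources used here. A table that the authors deposited holds raw read counts of 6 libraries. A second deposited table holds a normalized signal, counts the authors divided by a size factor per library, in which 100% of values above 0 were whole multiples of 1 step (tolerance 0.02 reads). The remaining table compares KO with WT: per the file headers it gives a mean signal, log2 fold changes, a Wald score, raw p-values and adjusted ones. Rows naming no gene (25 of 24449 and 27 of 23420, at most 0.217% and 0.284% of a library's reads) were left out.

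The count test was edgeR 4.0.16's (R 4.3.3) glmQLFit and glmQLFTest after filterByExpr (at least 10 reads, 15 in total) and TMM scaling, over all 6 libraries, 1 coefficient per group and no block (3 residual degrees of freedom), with Benjamini-Hochberg adjustment over 14548 genes and a threshold of 0.05. The SE is the ratio of the change to the root of its F statistic, and 95% intervals use the test's degrees of freedom. Alternatives were other scalings, no filter, DESeq2 1.42.0, a replicate block, fits of 2 groups, fits leaving out 1 library, summed Bcl2a1 copies, and the normalized table. On counts simulated for KO against WT (14524 genes tested), the fit called 59 of 100 genes changed by 1 on the log2 scale, 100 of 100 changed by 2, and 3 of 14324 unchanged ones. The simulation gave every gene the same dispersion and drew the changed genes from those with more reads, so these rates may differ in the real data. Replicates differed by more than sampling noise (chi-square per degree of freedom 16.5 to 32.0 in the count table). Coordinates, exon lengths and transcripts came from GENCODE M21 (mm10), matched by symbol for all 10 genes, and promoters from RefSeq (GRCm38.p6). Named genes were the 10 members, up to 4 called genes per other list and comparison, and the 3 genes most like each called member (prior count 2); Bid, Bmf and Bcl2a1c were named after their values were seen. The members and lists were chosen with earlier results of these data known. Pmaip1 is given without sequence.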

Additional observations from a re-analysis of the deposited data

How the results depend on the processing

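With 2 libraries a group, calls near the threshold moved with single libraries. Of 10 genes, 3 were called in KO against WT, 1 to 2 in the fits that each left out a library, and 0 in the normalized table, with or without a replicate block. For KO EAE against KO the count was 0, and 0 to 1 with a library left out. For KO EAE against WT it was 1, against 2 with upper-quartile scaling, 2 with DESeq2, 2 with the Bcl2a1 copies summed (the sum standing for both members), and 0 to 5 with a library left out. In the fit with a replicate block the counts were 2, 0 and 1, with Bcl2l1 the call lost (adjusted p = 0.0652). In the same order, 11.5%, 0% and 8.94% of all genes were called with the block, beside 12.9%, 0.0137% and 9.36% without it. For KO EAE against WT the share of all genes was 9.25% with upper-quartile scaling, 15.9% with DESeq2 and 9.37% with the copies summed. For KO against WT it was 0.0979% on the authors' normalized values, and 0.628% there with a block. Each fit of KO against WT that left out a library called a smaller share of all genes than the fit of all 6 libraries. For KO EAE against WT the share was larger without KO EAE replicate 1 and smaller in the other such fits. Counts of members in those fits therefore do not show a change particular to the 10 genes. Same-numbered libraries did not deviate together in all groups (correlations of replicate differences 0.01, -0.09 and 0.20), so the numbers were not taken as pairs. The cause of these differences was not tested.

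The normalized table reversed Bcl2 (0.16), Bcl2l1 (0.025), Bax (0.26), Bak1 (-0.55), Bcl2l11 (0.27), Bbc3 (0.61), Birc2 (0.028), Fas (0.00205) and Tnfrsf1a (-0.075) in KO against WT, on the log2 scale. With its replicate block the values were 0.16, 0.025, 0.26, -0.42, 0.29, 0.62, 0.042 and 0.00499 for the first 8. Other reversals were of values near 0: Bcl2l11 in KO against WT with upper-quartile scaling (0.00242), Bcl2 in KO EAE against KO without the filter (-0.00148) and with DESeq2 (-0.00109), and Bax in KO EAE against WT with upper-quartile scaling (0.022) and in the fit of 2 groups (0.00111). With a library left out, KO against WT ran from -0.18 to 0.023 for Mcl1 and from -0.041 to 0.00975 for Bcl2l11. KO EAE against KO ran from -0.15 to 0.18 for Bcl2, -0.064 to 0.16 for Mcl1, -0.29 to 0.022 for Bcl2a1b, -0.00925 to 0.38 for Bak1, -0.61 to 0.076 for Bcl2l11, -0.53 to 0.25 for Bbc3 and -0.00688 to 0.77 for Pmaip1. KO EAE against WT ran from -0.11 to 0.028 for Mcl1, -0.044 to 0.029 for Bax and -0.64 to 0.057 for Bcl2l11. Of 513 single-gene values under alternatives, 394 kept direction and side of the threshold, 71 lost a call, 10 gained one and 38 reversed.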
